A study of Homo sapiens with 9 samples.

Results

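The genes NFE2L2, KEAP1, NQO1, HMOX1, GCLC, GCLM, TXNRD1, SRXN1, GSR and GPX4 of the NRF2 antioxidant and glutathione system were followed in VCaP cells after knockdown of KMT2C. They were taken by gene name from a deposited table of 60612 genes, and all 10 of 10 were found. VCaP is an established line from a human prostate cancer and has the TMPRSS2-ERG fusion. Per the labels, cells received a control siRNA, siRNA 1 against KMT2C or siRNA 2 against KMT2C for 4 days, and each of the 3 groups has 3 RNA sequencing libraries. No drug, oxidant or other treatment is named in the labels, and sequences of the siRNAs were not given in the sources used here. The labels do not say that the replicates were separate cultures, so the p-values measure only the spread between these samples, and that spread may be technical.

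NRF2, encoded by NFE2L2, is a transcription factor that in resting cells is bound by KEAP1 and handed to a CUL3 ubiquitin ligase for degradation. Oxidants and electrophiles modify cysteines of KEAP1, NRF2 then accumulates, pairs with a small MAF protein and binds antioxidant response elements near genes for glutathione synthesis, thioredoxin recycling, quinone reduction and haem breakdown. This control acts largely on the NRF2 protein, which RNA sequencing does not measure, and histone H3 lysine 4 methylation, the activity of the enzyme encoded by KMT2C, was not measured in these libraries either.

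Library totals were 58462215 to 70726213 estimated counts, with close to 4 counts for each sequenced fragment. KMT2C itself was at 13.7, 12.1 and 12.9 FPKM (fragments per kilobase, adjusted for depth) in control libraries, at 1.54, 1.80 and 2.28 with siRNA 1 and at 1.72, 1.64 and 1.73 with siRNA 2, and every knockdown library was below every control library. All 11 of 11 markers of the VCaP line reached 1 FPKM in each library. Their summed level was 1066 to 1135 FPKM in control, 725 to 754 with siRNA 1 and 776 to 796 with siRNA 2, lower in every knockdown library. The genes RCVRN, CRX and GNAT1, which mark retina, were at 0 throughout, although the design text calls the RNA retinal. Of 5 fibroblast markers none reached 1 FPKM in all libraries, but their summed level was 7.12 to 12.4 FPKM with siRNA 2, against 1.48 to 2.27 in control and 0.684 to 0.887 with siRNA 1. Mitochondrial genes took 10.2% to 11.1% of counts in control libraries, 8.25% to 9.61% with siRNA 1 and 12% to 12.2% with siRNA 2. The part of any of these shifts in the results that follow was not tested, and in bulk RNA fewer cells of a type and less RNA per cell cannot be told apart.

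The antioxidant response element is the sequence through which NRF2 acts, so the members' promoters are shown where its core occurs. RefSeq promoter windows on GRCh38.p14, from 250 bases before to 50 bases after a start site, were used for 8 of the 10 members (13 windows). HMOX1 and GSR were not among them. These windows were searched on both strands for the core TGACNNNGC. It was found in 3 members, GCLM, TXNRD1 and KEAP1. The same core was present in 13.3% of all 35116 windows of this length, which is 16.1% of 27305 genes. The related AP-1 motif TGANTCA, which can overlap the core, was found in none of the 8 members and in 7.71% of all windows. The stretches that hold the core are printed 5′ to 3′ on the strand of the gene, with the core, read on either strand, in capitals.
GCLM, chr1:93909440-93909480, minus strand: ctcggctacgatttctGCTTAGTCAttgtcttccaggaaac
TXNRD1, downstream start, chr12:104286914-104286954, plus strand: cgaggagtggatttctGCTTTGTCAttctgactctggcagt
TXNRD1, upstream start, chr12:104215664-104215704, plus strand: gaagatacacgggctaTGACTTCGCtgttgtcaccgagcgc
TXNRD1, upstream start, chr12:104215761-104215789, plus strand: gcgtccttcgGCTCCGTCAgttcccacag
KEAP1, chr19:10502801-10502841, minus strand: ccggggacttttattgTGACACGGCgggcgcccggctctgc
KEAP1, chr19:10502778-10502818, minus strand: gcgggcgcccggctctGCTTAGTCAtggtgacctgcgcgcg
In GCLM the core begins 34 bases before the start site and reads GCTTAGTCA. The second KEAP1 stretch, 31 bases before the downstream start of KEAP1, holds the same 9 letters. Both KEAP1 stretches are from the window of that downstream start, and the window of the upstream KEAP1 start holds no match. A match is a run of letters and not a measured binding site, and a window without one says nothing about the factor.

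The 10 members covered a wide range of levels in control cells. GPX4 was highest at 69.5 ± 1.61 FPKM (mean ± SD, n = 3), above 96.7% of the 12830 genes tested, followed by SRXN1 at 37.7 ± 1.38. TXNRD1 at 27.3 ± 9.18, KEAP1 at 22.4 ± 2.33 and GSR at 18.2 ± 3.50 came next, and the libraries of each of these overlapped those of the gene before it. NFE2L2 at 6.47 ± 0.279 stood above the ligase subunits GCLM at 4.21 ± 0.406 and GCLC at 3.34 ± 0.156, with no overlap between libraries. NQO1 at 1.17 ± 0.318 and HMOX1 at 0.556 ± 0.0276 were lowest, with 11.2% and 1.98% of tested genes below them.

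**Figure D1:**
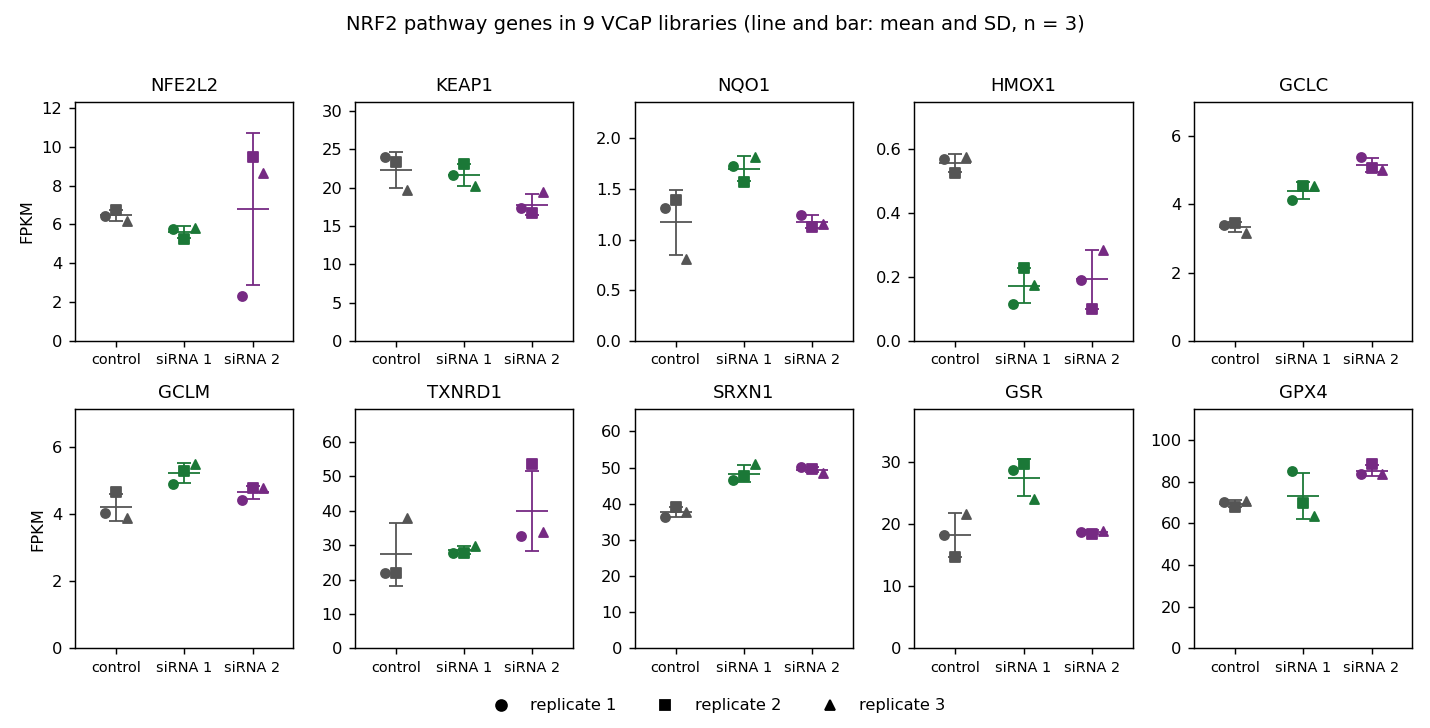
FPKM of the 10 members in each of the 9 libraries (1 point shape per replicate number), by group, with lines and bars for the group mean and SD (n = 3). GCLC and SRXN1 lie above all control libraries in both knockdown groups, HMOX1 lies below them in both, and NFE2L2 has 1 siRNA 2 library at 2.31 FPKM beside 9.49 and 8.64.

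Genes with at least 1 FPKM in at least 3 libraries were tested, which kept 9 of the 10 members and left out HMOX1. Each log2 fold change is given ± SE. Tests were edgeR's quasi-likelihood tests, adjusted by Benjamini-Hochberg over all 12830 genes, and a gene is called at an adjusted p under 0.05. With siRNA 1, 4 of 9 members rose (GCLC, GCLM, SRXN1 and GSR) and none fell, where 41.7% of all tested genes were called and 21.2% rose. None of these 9 was lower with siRNA 1 at an unadjusted p under 0.05 in edgeR or called lower by DESeq2, and HMOX1, which fell in the fit without the filter, is described further on. With siRNA 2, 2 rose (GCLC and SRXN1) and 1 fell (KEAP1), where 49.3% of all tested genes were called, with 24.4% of the tested genes rising and 24.9% falling. Between the siRNAs, 2 members were higher with siRNA 1 (KEAP1 and GSR) and 1 was lower (GCLC), where 39.5% of all genes were called. The share of members called was close to the background or below it and is not a result about these genes, and the excess of rises over falls with siRNA 1 rests on 9 genes and was not tested. The members' median log2 fold change was 0.29 with siRNA 1 and 0.09 with siRNA 2, beside 0.01 and 0.02 over all tested genes. Both siRNAs are compared with the same control libraries, so a pair of calls is not 2 independent observations. GCLC and SRXN1 rose with both siRNAs, as did 13.2% of all tested genes, and none of the members was called in opposite directions by the siRNAs, as 3.24% of all tested genes were. NFE2L2, NQO1, TXNRD1 and GPX4 passed the test with neither.

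**Figure D2:**
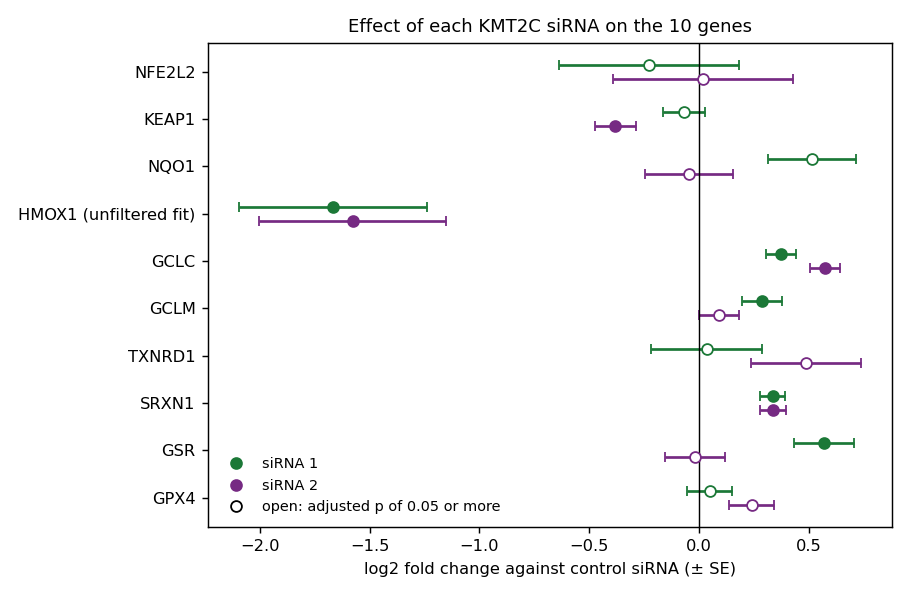
Log2 fold change against control of each member with siRNA 1 (green) and siRNA 2 (purple), with bars for the SE from edgeR and open points where the adjusted p was 0.05 or more, HMOX1 from the fit without a filter on low values. The SRXN1 points both lie at 0.34 and nearly coincide, whereas GSR has 0.57 with siRNA 1 and -0.02 with siRNA 2.

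NFE2L2 (ENSG00000116044, GRCh38 chromosome 2, 177227595 to 177287777, minus strand), the gene of the factor itself, was called in neither comparison. Its level was 6.45, 6.75 and 6.19 FPKM in control libraries and 5.77, 5.27 and 5.80 with siRNA 1, so that all siRNA 1 libraries were slightly below all control libraries. With siRNA 2 it was 2.31, 9.49 and 8.64 FPKM, 1 library far below control and the other two above it. The siRNA 1 log2 fold change was -0.23 ± 0.41 (adjusted p = 0.692), and that of siRNA 2 was 0.02 ± 0.41 (adjusted p = 0.974). The 3 groups share 1 estimate of spread in this fit, so the wide spread of the siRNA 2 libraries also enters the SE of siRNA 1. On leaving out 1 library, the siRNA 1 value was -0.26 to -0.18 with adjusted p of 0.0535 to 0.806 in edgeR, and it was not called. Without siRNA 2 replicate 1 the siRNA 2 value was 0.43 with an adjusted p of 0.00569, and siRNA 1 was below siRNA 2 by 0.66 with an adjusted p of 0.00121, from edgeR on the other 8 libraries. Whether NFE2L2 was called with siRNA 2 or between the siRNAs thus depended on siRNA 2 replicate 1.

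The low NFE2L2 value was unusual among genes, and genes with a range as wide did not single out siRNA 2 replicate 1. Whether a trait of this library lay behind the value was not tested. NFE2L2 spanned 2.02 log2 CPM (counts scaled to library size) over the siRNA 2 libraries, and 270 of 12830 tested genes, 2.10%, had a range at least as wide, beside a median range of 0.21. Replicate 1 was the library farthest from the middle one in 87 of those 270 genes, replicate 2 in 93 and replicate 3 in 90. The 5 genes whose centred log2 CPM followed NFE2L2 most closely over the 9 libraries were GMEB2, NXPH4, PELI3, MFSD14A and FAM136A, at root mean square distances of 0.215 to 0.266. GMEB2 was at 2.97 FPKM in siRNA 2 replicate 1 and at 7.11 and 7.45 in the other siRNA 2 libraries, and FAM136A was at 7.61 beside 25.3 and 27.7. Because these genes were picked by nearness over the same libraries, a shared low value follows from the choice. The nearest other member was KEAP1, at a distance of 0.552, and none of the remaining members was low in siRNA 2 replicate 1 to a like degree.

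**Figure D3:**
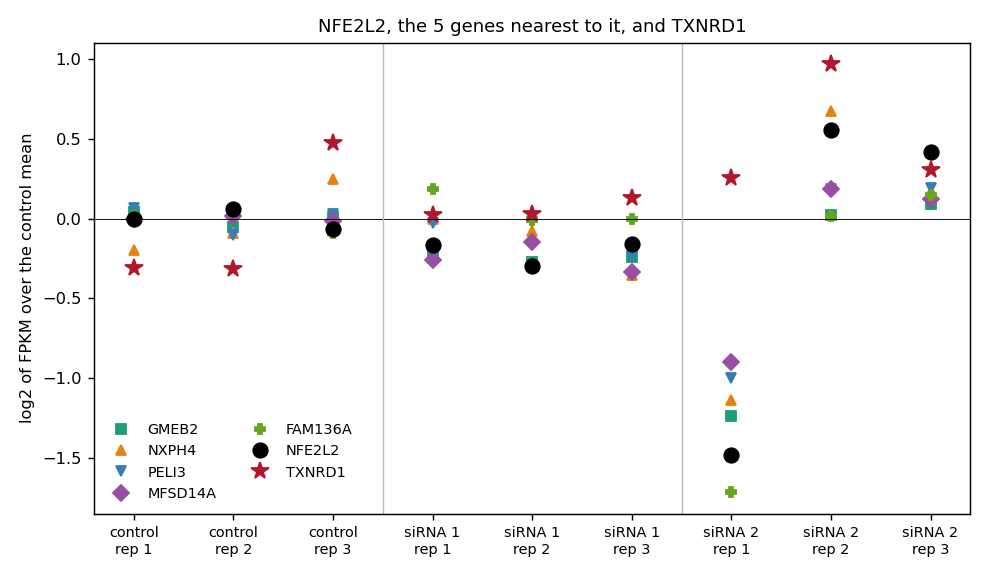
Log2 of FPKM over the control mean in each of the 9 libraries (x axis) for NFE2L2, the 5 tested genes nearest to it, and TXNRD1, in which other libraries stood apart. NFE2L2 and its 5 neighbours share the low point in siRNA 2 replicate 1, and TXNRD1 does not, with its highest point in siRNA 2 replicate 2. The 5 genes were picked by their nearness to NFE2L2 over these same libraries, so the shared low point follows from that choice.

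KEAP1 (ENSG00000079999, chromosome 19, 10486125 to 10503356, minus strand), the adaptor that targets NRF2 for degradation, fell with siRNA 2. It was at 24.0, 23.3 and 19.7 FPKM in control libraries, at 21.7, 23.2 and 20.2 with siRNA 1 and at 17.4, 16.7 and 19.4 with siRNA 2. Every siRNA 2 library was below every library of the other groups, though the highest came within a small step of the lowest control, and siRNA 1 overlapped control. The log2 fold change under siRNA 2 was -0.38 ± 0.09 (adjusted p = 0.00927), and under siRNA 1 it was -0.07 ± 0.09 (adjusted p = 0.592). KEAP1 was higher with siRNA 1 than with siRNA 2 by 0.31 ± 0.09 (adjusted p = 0.0286), but this difference did not pass without siRNA 1 replicate 1 or 2 or without siRNA 2 replicate 1 or 2 (adjusted p = 0.0623 to 0.0976), nor with upper-quartile scaling (0.0592).

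The first step of glutathione synthesis is carried out by glutamate-cysteine ligase, whose catalytic subunit is encoded by GCLC and whose modifier subunit, which lowers the enzyme's need for substrate, is encoded by GCLM. GCLC (ENSG00000001084, chromosome 6, 53497341 to 53616970, minus strand) was at 3.41, 3.45 and 3.16 FPKM in control libraries, at 4.12, 4.54 and 4.53 with siRNA 1 and at 5.39, 5.07 and 5.01 with siRNA 2. The 3 groups did not overlap, with control lowest and siRNA 2 highest. GCLC rose by 0.37 ± 0.07 with siRNA 1 (adjusted p = 0.00266), and it rose by 0.57 ± 0.07 with siRNA 2 (adjusted p = 1.79e-04). Its siRNA 1 value minus its siRNA 2 value, -0.20 ± 0.07, was just past the threshold (adjusted p = 0.0471) and was lost on leaving out any 1 library other than control replicate 3 (adjusted p = 0.0594 to 0.152). It was also lost without the filter on low values (-0.16, adjusted p = 0.243), with filterByExpr (-0.16, 0.142) and with only the groups compared (-0.21, 0.0634).

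GCLM (ENSG00000023909, chromosome 1, 93885199 to 93909456, minus strand) was at 4.05, 4.67 and 3.90 FPKM in control libraries, at 4.90, 5.29 and 5.49 with siRNA 1 and at 4.44, 4.77 and 4.77 with siRNA 2. All siRNA 1 libraries were above all control libraries, whereas the siRNA 2 libraries overlapped control. GCLM rose by 0.29 ± 0.09 with siRNA 1 (adjusted p = 0.0334), and its value with siRNA 2 was 0.09 ± 0.09 (adjusted p = 0.439). The siRNA 1 call did not hold without control replicate 1 or 3, siRNA 1 replicate 2 or 3, or siRNA 2 replicate 2, where the rise was 0.24 to 0.29 with adjusted p of 0.0512 to 0.102. It was also lost without the filter on low values (adjusted p = 0.0678), with filterByExpr (0.0585) and with only the groups compared (0.0699). The difference between the siRNAs in GCLM was 0.20 ± 0.09 and did not pass (adjusted p = 0.123).

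GSR (ENSG00000104687) encodes glutathione reductase, which regenerates glutathione from its oxidised form with NADPH. It was at 18.3, 14.7 and 21.7 FPKM in control libraries, at 28.8, 29.7 and 24.1 with siRNA 1 and at 18.8, 18.4 and 19.0 with siRNA 2. The siRNA 1 libraries stood above all other libraries, and the siRNA 2 libraries lay inside the control range. GSR rose by 0.57 ± 0.14 with siRNA 1 (adjusted p = 0.0105), and its value was -0.02 ± 0.14 with siRNA 2 (adjusted p = 0.929). The siRNAs differed in GSR by 0.59 ± 0.14 (adjusted p = 0.0096), the largest among the members called in that comparison. By these calls, GCLC was higher with both siRNAs, and its difference between the siRNAs was just past the threshold and lost in most alternatives. GSR was higher with siRNA 1 and differed between the siRNAs. GCLM was higher with siRNA 1 by a call that several alternatives ended. Its difference between the siRNAs did not pass, so it cannot be set apart from a gene that is higher with both.

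GPX4 (ENSG00000167468, chromosome 19, 1103926 to 1106788, plus strand), the selenoprotein that uses glutathione to reduce lipid peroxides in membranes, was not called. It was at 70.0, 67.6 and 70.7 FPKM in control libraries, at 85.3, 70.0 and 63.7 with siRNA 1 and at 83.6, 88.3 and 83.9 with siRNA 2. All siRNA 2 libraries were above all control libraries, and the siRNA 1 libraries spread to both sides of control. The log2 fold change under siRNA 2 was 0.24 ± 0.10 (adjusted p = 0.0852), and under siRNA 1 it was 0.05 ± 0.10 (adjusted p = 0.741). GPX4 passed with siRNA 2 when only control and siRNA 2 libraries were fitted (0.23, adjusted p = 0.00461), without siRNA 1 replicate 1 (0.24, adjusted p = 0.00481) or replicate 3 (0.23, adjusted p = 0.0492), with upper-quartile scaling (0.34, adjusted p = 0.0263) and with library totals alone (0.29, adjusted p = 0.0393), all in edgeR. It also passed in limma at both pseudocounts (0.29, adjusted p = 0.0336 and 0.034). Over all alternatives its adjusted p with siRNA 2 was 0.00461 to 0.227. Without siRNA 1 replicate 1, GPX4 also differed between the siRNAs, with a value of -0.33 for siRNA 1 against siRNA 2 (adjusted p = 0.00305).

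Sulfiredoxin, encoded by SRXN1 (ENSG00000271303, chromosome 20, 646615 to 653200, minus strand), repairs over-oxidised peroxiredoxins. SRXN1 was at 36.3, 39.1 and 37.6 FPKM in control libraries, at 46.5, 47.7 and 50.9 with siRNA 1 and at 50.1, 49.6 and 48.5 with siRNA 2. Both knockdown groups were wholly above control and overlapped each other. It rose by 0.34 ± 0.06 with siRNA 1 (adjusted p = 0.00202) and by 0.34 ± 0.06 with siRNA 2 (adjusted p = 0.00145), and the difference between the siRNAs was -0.00 ± 0.06 (adjusted p = 0.991). Over all 9 libraries GCLC and SRXN1 were the closest pair of members, at a root mean square distance of 0.114 in centred log2 CPM, and GCLM was nearest to SRXN1 as well, at 0.122.

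TXNRD1 (ENSG00000198431, chromosome 12, 104215779 to 104350307, plus strand) encodes the cytosolic thioredoxin reductase. It was at 22.0, 22.0 and 37.9 FPKM in control libraries, at 27.8, 27.9 and 29.8 with siRNA 1 and at 32.6, 53.5 and 33.7 with siRNA 2. Control replicate 3 and siRNA 2 replicate 2 stood apart from the others of their groups, and the groups overlapped. The siRNA 1 log2 fold change was 0.03 ± 0.25 (adjusted p = 0.928), and that of siRNA 2 was 0.49 ± 0.25 (adjusted p = 0.141). Without control replicate 3 the siRNA 2 value was 0.81 (adjusted p = 0.0145), so whether TXNRD1 was called depended on that library. The processed pseudogene RPL18AP3 lies inside the TXNRD1 gene on the same strand and had 6362 to 11394 counts per library, which is 54.0% of the TXNRD1 counts. In GENCODE release 29 the exons of these genes share 0 bases, but the division of reads between them in the authors' counting is not given.

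NQO1 (ENSG00000181019, chromosome 16, 69706996 to 69726668, minus strand), a quinone reductase and a common readout of NRF2 activity, was low in these cells. It was at 1.31, 1.39 and 0.807 FPKM in control libraries, at 1.72, 1.57 and 1.82 with siRNA 1 and at 1.25, 1.13 and 1.16 with siRNA 2. All siRNA 1 libraries were above all others, while siRNA 2 lay within the control range. The siRNA 1 log2 fold change was 0.51 ± 0.20 (adjusted p = 0.0707), and that of siRNA 2 was -0.04 ± 0.20 (adjusted p = 0.874), and the siRNAs differed by 0.56 ± 0.20 (adjusted p = 0.0554). The siRNA 1 value and the difference lay close to the threshold: without control replicate 2 the siRNA 1 value was 0.67 (adjusted p = 0.0439), and the difference between the siRNAs passed without control replicate 2 (adjusted p = 0.0497) or 3 (adjusted p = 0.0109). The difference also passed in DESeq2 (0.56, adjusted p = 0.0354) and with only the groups compared (0.55, adjusted p = 0.0191), and the siRNA 1 value in limma on log2(FPKM + 1) (0.33, adjusted p = 0.0432).

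HMOX1 (ENSG00000100292, chromosome 22, 35380361 to 35390293, plus strand) encodes the inducible haem oxygenase, which breaks haem down to biliverdin, iron and carbon monoxide. It was at 0.569, 0.525 and 0.575 FPKM in control libraries, at 0.116, 0.227 and 0.174 with siRNA 1 and at 0.192, 0.10 and 0.284 with siRNA 2. These are 91, 97 and 112 counts in control, 22, 42 and 32 with siRNA 1 and 35, 19 and 53 with siRNA 2, so few fragments stand behind each knockdown value. Every knockdown library was below every control library. The 2-sided exact permutation test on log2 CPM compared the 6 knockdown with the 3 control libraries. Its p was 0.0119, the smallest that 84 splits allow, and for a single siRNA it was 0.1, the smallest that 20 splits allow. This test was planned for KMT2C alone and was run for no other member, and its p adds little to the separation just described.

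HMOX1 was tested in edgeR without the filter on low values, where 33869 genes were fitted and 15.0% of them were called with siRNA 1, 19.9% with siRNA 2 and 14.6% between the siRNAs. Its siRNA 1 log2 fold change was -1.67 ± 0.43 (adjusted p = 0.0261) and its siRNA 2 value -1.58 ± 0.42 (adjusted p = 0.0259), the largest change among the 10 members and in the opposite direction to GCLC and SRXN1. The value between the siRNAs was -0.09 (adjusted p = 0.985). The siRNA 1 call did not pass on leaving out any control library, siRNA 1 replicate 1 or siRNA 1 replicate 3, with values of -1.44 to -1.72 and adjusted p of 0.0562 to 0.0799. The siRNA 2 call did not pass on leaving out any control library, siRNA 2 replicate 1 or siRNA 2 replicate 2, with values of -1.27 to -1.61 and adjusted p of 0.0568 to 0.0717.

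**Figure D4:**
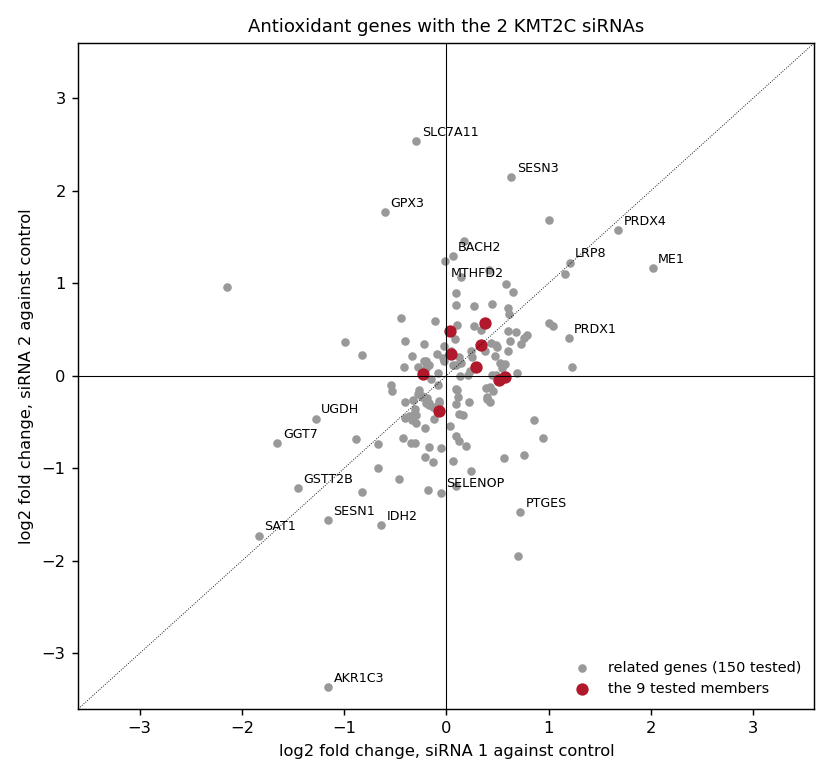
Log2 fold change with siRNA 1 (x axis) against that with siRNA 2 (y axis) for the 9 tested members (red) and 150 tested genes of the related lists (grey), both from edgeR against the same 3 control libraries, with some of the genes described in the text named and a dotted line of equal change. The 9 plotted members all lie near the centre, and SLC7A11 (-0.29 and 2.54) and AKR1C3 lie far from it. HMOX1, left out by the filter, is not plotted, and its change in the fit without the filter was the largest among the members.

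The genes around the 10 members were read from 10 related lists, 173 genes of which 150 were tested. With siRNA 1, 45 rose and 33 fell (52.0% called), and with siRNA 2, 40 rose and 54 fell (62.7%), beside 41.7% and 49.3% of all tested genes. Their medians were 0.07 and 0.01. Called with both siRNAs were 24 genes that rose and 21 that fell, and 12 were called in opposite directions, 8 higher with siRNA 1 and 4 higher with siRNA 2. Over all tested genes 13.2% rose with both, 12.6% fell with both and 3.24% were called in opposite directions. Over the lists together the called share was above that of all tested genes, which was not tested further, and the changes went both ways. The lists were chosen with earlier results of these data known, so a higher share, here and in single lists below, can follow from that choice. In some single lists it was near or below that share. Over all tested genes 21.2% rose and 20.5% fell with siRNA 1, and 24.4% rose and 24.9% fell with siRNA 2. Adjusted p-values for single genes below are from the same edgeR test.

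**Figure D5:**
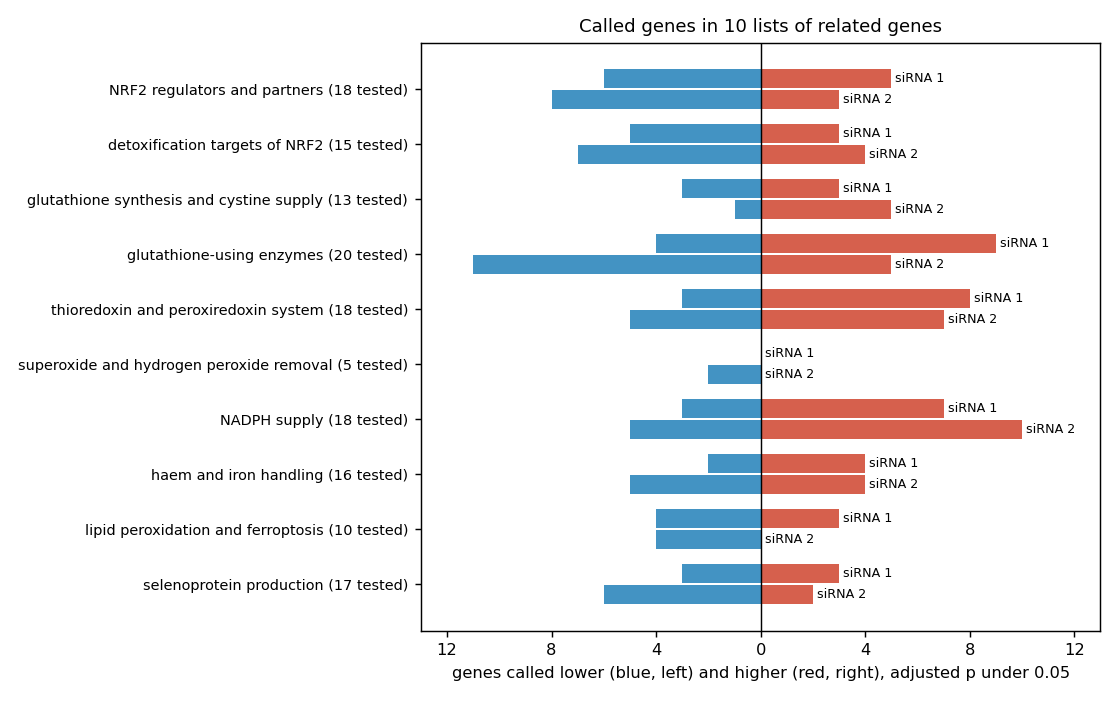
Number of genes called higher and lower against control (bars to either side of 0) in each related list, for siRNA 1 and siRNA 2. The glutathione-using enzymes have 9 higher and 4 lower with siRNA 1 and 5 higher and 11 lower with siRNA 2. Over all tested genes 21.2% were called higher and 20.5% lower with siRNA 1, and 24.4% and 24.9% with siRNA 2.

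Among 18 regulators and partners of NRF2, 5 rose and 6 fell with siRNA 1 and 3 rose and 8 fell with siRNA 2. The called share was 61.1% with each siRNA, beside 41.7% and 49.3% of all tested genes. SQSTM1, which encodes the autophagy adaptor p62 that can sequester KEAP1, was at 25.3, 24.3 and 26.0 FPKM in control libraries, at 16.8, 17.1 and 14.5 with siRNA 1 and at 15.9, 15.7 and 15.4 with siRNA 2. It fell by 0.67 ± 0.07 (adjusted p = 1.68e-04) and by 0.74 ± 0.07 (adjusted p = 5.02e-05). NFE2L1, which encodes the related factor NRF1, rose by 0.34 with siRNA 1 and 0.49 with siRNA 2. BACH2, which encodes a repressor that binds the same elements, had a log2 fold change of 0.06 with siRNA 1 (adjusted p = 0.817) and rose by 1.29 with siRNA 2, and the difference between the siRNAs was -1.23 (adjusted p = 8.93e-04). GSK3B, a kinase that marks NRF2 for degradation, fell by 0.42 with siRNA 1, was at 0.09 with siRNA 2 (adjusted p = 0.391) and differed between them by -0.51 (adjusted p = 0.00138).

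Of 23 detoxification genes 15 were tested, with 3 higher and 5 lower with siRNA 1 and 4 higher and 7 lower with siRNA 2. Called were 53.3% and 73.3%, beside 41.7% and 49.3% of all tested genes. AKR1C3, an aldo-keto reductase that also makes androgens, fell by 1.15 and by 3.37, though it has near-identical relatives among which reads could be split. Multidrug exporters split: ABCC5 fell by 0.89 and 0.69, ABCC1 rose by 0.60 and 0.73, and ABCC4 fell by 0.99 and rose by 0.37 with siRNA 1 and siRNA 2, a difference of -1.36 (adjusted p = 6.06e-06). PIR rose by 1.00 and 0.57, and UGDH, which makes UDP-glucuronic acid, fell by 1.28 and 0.47.

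Of 13 tested genes for glutathione synthesis and cystine supply, 3 rose and 3 fell with siRNA 1, and 5 rose and 1 fell with siRNA 2. That is 46.15% called with each, near the 41.7% and 49.3% of all tested genes. Between the siRNAs 4 of the 13 were higher and 8 lower with siRNA 1, beside 39.5% of all tested genes called in that comparison. SLC7A11, the cystine importer and a known NRF2 and ATF4 target, was at 1.5, 1.53 and 0.752 FPKM in control libraries, at 0.975, 1.19 and 0.964 with siRNA 1 and at 7.84, 8.88 and 6.05 with siRNA 2. Only the siRNA 2 libraries stood apart from control. The log2 fold change under siRNA 2 was 2.54 ± 0.27 (adjusted p = 8.49e-05), and under siRNA 1 it was -0.29 ± 0.26 (adjusted p = 0.393), though without control replicate 3 SLC7A11 fell with siRNA 1 by 0.56 (adjusted p = 0.0339). The difference between the siRNAs was -2.83 ± 0.27 (adjusted p = 8.33e-05). CBS, which feeds the route from methionine to cysteine, likewise rose with siRNA 2 by 0.90 and was at 0.09 with siRNA 1 (adjusted p = 0.267), a difference of -0.80 (adjusted p = 2.8e-05). The glutamine carrier SLC1A5 rose with both, by 1.04 and 0.54.

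Glutathione-using enzymes had 9 of 20 tested genes higher and 4 lower with siRNA 1, and 5 higher and 11 lower with siRNA 2. Not called were 7 of the 20 with siRNA 1 and 4 with siRNA 2. The called share was thus above the 41.7% and 49.3% of all tested genes, of which 24.9% fell with siRNA 2. GSTO1 rose by 0.94 and fell by 0.67 with siRNA 1 and siRNA 2 respectively, and PTGES, a prostaglandin E synthase that uses glutathione, rose by 0.72 and fell by 1.48, with differences between the siRNAs of 1.62 (adjusted p = 2.75e-05) and 2.20 (adjusted p = 8.87e-06). GSTT2B, which has a near-identical copy, fell by 1.46 and 1.22, and MGST3 by 0.43 and 0.68. The secreted peroxidase gene GPX3, in contrast, rose by 1.77 under siRNA 2 while it fell by 0.60 under siRNA 1, and the siRNA 1 call was lost without control replicate 3 (-0.39, adjusted p = 0.0518) or siRNA 1 replicate 1 or 2 (-0.58, adjusted p = 0.0563 and 0.0571).

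In the thioredoxin and peroxiredoxin list 8 of 18 tested genes rose and 3 fell with siRNA 1, and 7 rose and 5 fell with siRNA 2. Called were 61.1% and 66.7%, beside 41.7% and 49.3% of all tested genes. PRDX4, the peroxiredoxin of the endoplasmic reticulum, was at 12.9, 10.6 and 10.8 FPKM in control libraries, at 37.2, 35.8 and 38.9 with siRNA 1 and at 36.6, 34.1 and 35.6 with siRNA 2. It rose by 1.68 ± 0.08 (adjusted p = 4.96e-06) and by 1.57 ± 0.08 (adjusted p = 1.82e-06), more than any of the 10 members rose. TXNRD3, a relative of TXNRD1, rose by 1.16 and 1.10, and SESN3 by 0.64 and 2.14. SESN1 fell by 1.16 and 1.56. PRDX1, a substrate of sulfiredoxin, rose by 1.20 with siRNA 1 and 0.40 with siRNA 2, and differed between them by 0.79 (adjusted p = 1.85e-04).

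NADPH, the reductant used by both GSR and TXNRD1, comes from several enzymes. Of 18 tested, 7 rose and 3 fell with siRNA 1 and 10 rose and 5 fell with siRNA 2. Called were 55.6% and 83.3%, beside 41.7% and 49.3% of all tested genes. TKT of the pentose phosphate pathway rose by 0.61 and 0.67, and malic enzyme gene ME1 rose by 2.02 and 1.16 from 0.305, 0.354 and 0.490 FPKM in control libraries. These control values are under 1 FPKM, so ME1 passed the filter only through knockdown libraries. In edgeR without the filter ME1 rose by 2.03 and 1.13. Mitochondrial IDH2 fell by 0.64 and 1.61. MTHFD2 of mitochondrial folate metabolism rose by 1.24 with siRNA 2, was at -0.01 with siRNA 1 (adjusted p = 0.945) and differed between them by -1.25 (adjusted p = 1.05e-04).

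Haem and iron genes had 4 of 16 higher and 2 lower with siRNA 1, and 4 higher and 5 lower with siRNA 2. Their called share was 37.5% and 56.25%, near the 41.7% and 49.3% of all tested genes. HMOX2, the constitutive haem oxygenase, was at 5.68, 5.54 and 5.78 FPKM in control libraries and rose by 0.62 and 0.38, opposite in direction to HMOX1. FTL, the ferritin light chain, whose processed pseudogenes could share its reads, rose by 0.59 and 0.99, and FECH, which makes haem, by 0.65 and 0.91. In the lipid peroxidation list 3 of 10 tested genes rose and 4 fell with siRNA 1 (70.0% called). With siRNA 2 none rose (also at an unadjusted p under 0.05 in edgeR and by DESeq2) and 4 fell (40.0% called). SAT1, which acetylates spermidine, fell by 1.83 and 1.73. LPCAT3 and ALOX15 rose with siRNA 1, by 0.86 and 0.76, and fell with siRNA 2, by 0.48 and 0.86.

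Selenoprotein genes had 3 of 17 tested higher and 3 lower with siRNA 1, and 2 higher and 6 lower with siRNA 2. Called were 35.3% and 47.1%, below the 41.7% and 49.3% of all tested genes. LRP8, a receptor for selenoprotein P, rose by 1.21 and 1.22, and SELENOP itself fell by 1.27 with siRNA 2 and was at -0.06 with siRNA 1 (adjusted p = 0.694). None of 5 tested genes for superoxide and peroxide removal was called with siRNA 1 in edgeR (2 were higher at an unadjusted p under 0.05). DESeq2 called 0 there. With siRNA 2, 2 fell, which is 40.0% of the 5, beside 49.3% of all tested genes. These were PARK7, which fell by 0.76, and CAT, which encodes catalase and fell by 0.28 (adjusted p = 0.0347). The CAT call was lost with upper-quartile scaling (-0.19, adjusted p = 0.127) and without control replicate 1 or 3 or siRNA 2 replicate 2 or 3 (-0.22 to -0.32, adjusted p = 0.0512 to 0.118). It was also lost with library totals alone (adjusted p = 0.0756), in both limma fits (0.069 and 0.0678) and with the replicate block (0.0559).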

How the data were processed

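RNA of 9 VCaP libraries was sequenced. The authors' deposited table holds, per the file headers, FPKM and counts per gene. Its count columns were handled as estimated, expected counts: the deposited values are whole and not normalized, but low values pile up at 4 (11286 values, against 4677 at 3 and 2524 at 5), so close to 4 counts stand for 1 fragment. The submitters' processing notes list Bowtie 0.12.2 and the builds mm8 and hg38, with no role stated. Neither the counting tool nor its use of strand is given in the sources used here. All 10 members carry the same identifier in GENCODE release 29 on GRCh38 and overlap its gene models, 1 with the same start and end, so positions are on GRCh38 as deposited.

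Counts, rounded to whole numbers, were fitted in edgeR 4.0.16 (R 4.3.3) by the quasi-likelihood F test after TMM scaling, on all 9 libraries with 1 mean per group and genes of at least 1 FPKM in at least 3 libraries (12830 genes). Benjamini-Hochberg adjustment ran over all of them, and the common dispersion was 0.0437. SE is the fold change over the square root of F. The fit was tested on simulated data. Profiles were compared as log2 CPM with a prior count of 2, centred per gene. Library totals limit low genes most, HMOX1 above all.

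The rule for named genes took KMT2C, the 10 members, up to 4 genes per related list with the smallest larger adjusted p of both siRNAs, up to 2 with the smallest p between the siRNAs, and the 5 nearest profiles to NFE2L2. Some genes it takes are not described. The members and lists were chosen with earlier results of these data known. Alternatives were DESeq2 1.42.0, upper-quartile scaling, library totals alone, no filter, edgeR's filterByExpr, limma 3.58.1 on log2(FPKM + 1) and log2(FPKM + 0.1), only the groups compared, a replicate block, and leaving out each library.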

Additional observations from a re-analysis of the deposited data

Results flagged for a closer look

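In 3 members the effects of the 2 siRNAs differed by the test of siRNA 1 against siRNA 2 in edgeR's quasi-likelihood test (Benjamini-Hochberg), where 39.5% of all tested genes did so. GSR was higher with siRNA 1 by 0.59 (adjusted p = 0.0096), with all 3 siRNA 1 libraries above all 3 siRNA 2 libraries. KEAP1 was higher with siRNA 1 by 0.31 (adjusted p = 0.0286), again without overlap. GCLC was lower with siRNA 1, with a difference of -0.20 (adjusted p = 0.0471), and the groups did not overlap. The KEAP1 and GCLC differences were lost with the replicate block (adjusted p = 0.0579 and 0.0832), KEAP1 also on leaving out siRNA 1 replicate 1 or 2 or siRNA 2 replicate 1 or 2 (0.0623 to 0.0976), and GCLC on leaving out any library but control replicate 3 (0.0594 to 0.152). Both siRNAs lowered KMT2C, and the cause of the differences was not tested.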

How the results depend on the processing

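Apart from leaving out a library, 228 of 261 member values and 1188 of 1233 values of the named related genes kept their direction and their side of the threshold, and on leaving out 1 library 218 of 270 and 1172 of 1233 did. The number of members called was 3 to 5 with siRNA 1, 3 to 4 with siRNA 2 and 1 to 4 between the siRNAs when 1 library was left out, beside 4, 3 and 3 on all libraries, and 1 between the siRNAs without siRNA 1 replicate 2 or siRNA 2 replicate 2. Over all genes the counts were 4511 to 5082, 5508 to 6706 and 4109 to 4981, beside 5349, 6328 and 5068. Upper-quartile scaling shifted the median of all genes by 0.05, 0.10 and -0.05, and 59.4% of calls with siRNA 2 were then rises, beside 49.4%.

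Every change of direction was in a value that was not called on all libraries, and the cause was not tested. NFE2L2 with siRNA 2 was -0.01 without the filter, -0.03 with filterByExpr, -0.10 and -0.16 in limma at pseudocounts of 1 and 0.1, and -0.10 with the replicate block. In the order of upper-quartile scaling, library totals and both limma fits, NQO1 with siRNA 2 was 0.05, 0.01, 0.01 and 0.04, GSR with siRNA 2 was 0.08, 0.04, 0.05 and 0.06, and MTHFD2 with siRNA 1 was 0.03, 0.01, 0.03 and 0.03. SOD2 with siRNA 1 was 0.05 in limma at a pseudocount of 0.1. Without the filter and with filterByExpr, ME3 with siRNA 2 was -0.01 and -0.03, and SRXN1 between the siRNAs was 0.04 and 0.04.

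On leaving out 1 library, values with siRNA 1 ranged from -0.11 to 0.35 for TXNRD1, -0.09 to 0.13 for GPX4, -0.05 to 0.23 for BACH2, -0.03 to 0.11 for CCS, -0.55 to 0.62 for SOD2, -0.15 to 0.12 for MTHFD2 and -0.17 to 0.04 for SELENOP. With siRNA 2 they ranged from -0.29 to 0.43 for NFE2L2, -0.25 to 0.11 for NQO1, -0.15 to 0.14 for GSR, -0.40 to 1.17 for SOD2 and -0.00 to 0.08 for ME3. Between the siRNAs they ranged from -0.66 to 0.06 for NFE2L2, -0.03 to 0.02 for SRXN1, -0.41 to 0.31 for HMOX1 and -0.83 to 0.19 for SOD2. The HMOX1 alternatives without the filter were chosen after seeing the data.

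The replicate numbers did not pair the samples: correlations of same-numbered libraries' deviations from their group means were -0.0688 to 0.0393, and the highest, 0.0912, was between different numbers. With the number as a replicate block, members called were 4, 3 and 1, all genes called were 5007, 6070 and 4766, MTHFD2 with siRNA 1 was 0.00, KEAP1 and GCLC no longer differed between the siRNAs by the test (adjusted p = 0.0579 and 0.0832), and HMOX1 had adjusted p of 0.0558 with siRNA 1 and 0.0488 with siRNA 2, all in edgeR.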

Other observations

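The RNA ratio of the catalytic to the modifier subunit gene of glutamate-cysteine ligase was computed after the values of GCLC and GCLM had been seen. Protein was not measured. GCLC FPKM over GCLM FPKM was 0.841, 0.738 and 0.809 in control libraries. It was 0.842, 0.859 and 0.826 for siRNA 1, while siRNA 2 gave 1.22, 1.06 and 1.05. The mean was 0.796 ± 0.0525, 0.842 ± 0.0165 and 1.11 ± 0.0920 (SD, n = 3). All siRNA 2 libraries were above all others. In an exact 2-sided permutation test p was 0.1 for siRNA 2 against control, the smallest that 20 splits of 3 against 3 allow, and 0.2 for siRNA 1 against control.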
